A study of Mus musculus with 8 samples.

Results

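The loops of mouse chromosome 11 were measured by H3K27ac HiChIP in 4 embryonic stem cell lines, and their share of each library's counts was followed with emphasis on the line D2-13B6. All loops of the series table whose first anchor lay on chromosome 11 were taken, which gave 41008 of 415681 loops. These loops joined 1889 of 30044 anchors, and the number of loops between different chromosomes in the table was 0. The chromosome was chosen by its share of library counts, which stood apart in D2-13B6, so this share in that line, and every difference between D2-13B6 and another line on it, is given here as a description with no test. The comparisons of D2 with B6 and of B6-13D2 with B6 use no D2-13B6 library on either side, and these were tested.

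B6 was the C57BL/6J line B6 5-1, and D2 was the DBA/2J line D2 5-5. B6-13D2 was the line QJ 6-1 of the congenic strain B6.D2-(rs30079041-rs51756099)/Bakr, which carries a D2 segment in a B6 genome. D2-13B6 was the line XE 2-4 of the reciprocal strain, called D2.B6-(rs29224292-rs13469455)/Bakr in the sample labels and D2.B6-(rs29224292-rs51756099)/Bakr in the series design text. The segments belong to chromosome 13, so by its name D2-13B6 has the D2 genome on chromosome 11. All lines grew in DMEM with serum, LIF, the MEK inhibitor PD0325901 and the GSK3 inhibitor CHIR99021, and libraries were sequenced as read pairs of 150 bp. Each genotype was 1 cell line with 2 technical replicates, so p-values measure only the spread between libraries of 1 line.

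HiChIP ligates neighbouring DNA ends in fixed nuclei and recovers the fragments that carry a chosen protein or mark. Acetylation of histone H3 at lysine 27 marks active promoters and enhancers, so a counted read pair depends at once on acetylation, on contact and on how much DNA of the locus the cells hold. These contributions cannot be told apart in the counts, and DNA copy number was not analysed here. In a bulk sample, a difference in part of the cells and a smaller difference in every cell cannot be told apart either.

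Chromosome 11 is among the gene-dense mouse chromosomes, and most active promoters of mouse cells are rich in CG dinucleotides. The promoters of 3 genes that recur in the results are shown as the 250 bases before the RefSeq start on GRCm38.p6, 5′ to 3′ on the gene's strand, with every CG in capitals. Actr2, a subunit of the actin-nucleating Arp2/3 complex, starts in one of the strongest anchors of the chromosome, and its window is chr11:20112952-20113201 on the minus strand. Suz12, a core subunit of Polycomb repressive complex 2, starts in an anchor called higher in D2 and in B6-13D2 than in B6. Neither call held in every refit. Its window is chr11:79992856-79993105 on the plus strand. Ypel2, a member of the yippee-like family, starts in an anchor that was lower in D2 and in B6-13D2 than in B6, and its window is chr11:86993763-86994012 on the minus strand.
Actr2: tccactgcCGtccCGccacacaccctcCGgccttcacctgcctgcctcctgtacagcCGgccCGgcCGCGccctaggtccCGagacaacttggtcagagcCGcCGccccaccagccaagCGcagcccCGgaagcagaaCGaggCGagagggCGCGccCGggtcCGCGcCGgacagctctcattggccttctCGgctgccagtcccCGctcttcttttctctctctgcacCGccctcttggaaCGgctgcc
Suz12: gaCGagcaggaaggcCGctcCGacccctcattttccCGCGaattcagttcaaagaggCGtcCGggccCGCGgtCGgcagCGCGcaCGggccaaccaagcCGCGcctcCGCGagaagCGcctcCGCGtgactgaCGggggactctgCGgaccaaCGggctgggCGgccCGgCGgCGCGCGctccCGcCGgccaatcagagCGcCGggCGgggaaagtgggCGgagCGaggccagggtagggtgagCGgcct
Ypel2: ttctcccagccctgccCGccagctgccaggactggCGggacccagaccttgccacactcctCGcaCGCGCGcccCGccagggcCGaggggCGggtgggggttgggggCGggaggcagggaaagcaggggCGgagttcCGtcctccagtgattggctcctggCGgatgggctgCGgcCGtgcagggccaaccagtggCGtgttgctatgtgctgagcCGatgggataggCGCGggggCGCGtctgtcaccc
These windows held 24, 37 and 21 CG, which 12.0%, 2.20% and 16.3% of all 32851 RefSeq promoter windows of this length reached or passed. Of the chromosome 11 windows whose gene starts in an anchor (926), 76.0% held at least 10 CG, against 24.7% of those without an anchor. On the other chromosomes these shares were 72.0% and 20.9%, and over all windows 37.8%. A match to the letters CG reads the same on both strands and is a description of the window only.

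Library totals ran from 737955 to 1425304 counts, and the D2-13B6 libraries were the deepest, with 1395052 and 1425304. The second B6-13D2 library was close to them in depth, with 1357176 counts. Intervals on shares are exact 95% binomial intervals and cover counting error only, since read pairs carried no molecular identifiers. All 10 embryonic stem cell markers examined, among them Pou5f1 and Nanog, had an annotated start in an anchor, with levels of 27.4 to 856 CPM, the counts scaled to a common library size. Of 13 markers of other cell types, only Col1a2 had one, at 10.3 to 21.3 CPM. The stem cell markers summed to 2524 to 3209 CPM in the libraries of the other lines and to 3336 and 3706 CPM in D2-13B6. Tested anchors over 200 CPM off chromosome 11 were also mostly higher in D2-13B6 than in D2, with a median log2 fold change of 0.20.

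Chromosome 11 held more loops than any other chromosome. It also ranked first in loops per anchor (21.7), in anchors per Mb (15.9) and in the median distance between the 2 anchors of a loop (670 kb). Protein-coding genes started in 36.6% of its anchors, the second highest share of all chromosomes. In the libraries, chromosome 11 loops took 10.6% and 10.0% of the counts in B6, 10.3% and 10.3% in D2, and 10.1% and 10.3% in B6-13D2. In D2-13B6 they took 13.9% and 14.0%. Both D2-13B6 libraries thus lay above all 6 others, which differed little among themselves. The deepest of those 6, at nearly the depth of D2-13B6, held 10.3%.

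The mean share in D2-13B6 was 1.36 times that of the other 6 libraries, where the spread between libraries of 1 line was 0.0289 on this ratio. For 100 counts on all other chromosomes, chromosome 11 gave 11.2 to 11.9 counts in the other lines and 16.1 and 16.2 in D2-13B6, so that the lower D2-13B6 library was 1.36 times the highest of the others. The share in D2 was 0.999 times that in B6, and that in B6-13D2 was 0.987 times that in B6, differences smaller than this spread. Both the number of loops seen and the counts per loop were higher in D2-13B6. Of the loops with at least 1 count, 11.6% lay on chromosome 11 in each D2-13B6 library, against 9.53% to 9.96% in the other lines. A detected loop of chromosome 11 had a mean of 8.98 and 9.34 counts in D2-13B6, where loops of the other chromosomes had 7.29 and 7.52. In the deep B6-13D2 library these means were 8.05 and 7.61.

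No other chromosome had a raised share of this kind. Of chromosomes 1 to 19 and X, chromosome 11 was the only one with both D2-13B6 libraries above all others (5% of 20 chromosomes). On the other 19 chromosomes the mean D2-13B6 share ranged from 0.853 to 1.03 times that of the other libraries, with a median of 0.968, and the X chromosome stood at 1.02. On 13 of them both D2-13B6 libraries lay below all others. Shares of a library add up to 1 whole, so they are not independent of each other. The lowest was chromosome 13, at 2.80% and 2.82% in D2-13B6 against 3.10% to 3.42%.

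**Figure D1:**
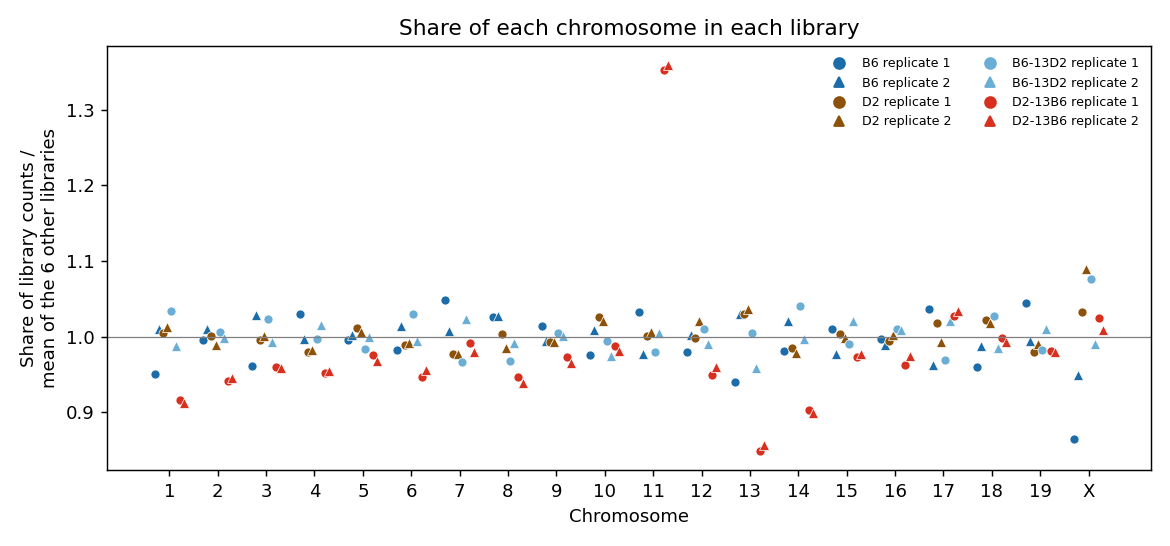
Share of library counts of each chromosome (x axis) in each of the 8 libraries, divided by the mean of the 6 libraries of B6, D2 and B6-13D2 (y axis; colour is the line, symbol the replicate). Both D2-13B6 libraries lie at about 1.36 on chromosome 11, and on the other chromosomes the mean of the 2 lies between 0.853 and 1.03.

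The excess was present in short and in long contacts. Loops inside 1 anchor, which record ligations within a merged acetylated region, held 10.1% to 10.7% of their class's counts on chromosome 11 in the other lines and 13.6% and 13.8% in D2-13B6, a ratio of 1.34. Contacts spanning under 50 kb gave 9.24% to 9.93% and then 13.1% and 13.1%, a ratio of 1.36. The 50 to 100 kb class had a ratio of 1.35, with 14.3% in both D2-13B6 libraries against 10.4% to 10.9%. The 100 to 500 kb class had a ratio of 1.36, with 14.3% against 10.2% to 10.8%. For the 24710 loops of 500 kb and more, the shares were at most 11.6% in the other lines and 16.1% in both D2-13B6 libraries, a ratio of 1.42. The ratio thus lay between 1.34 and 1.42 in every span class, and the longest class had the highest.

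It was also present at every abundance. Loops with a single count in all 8 libraries had 7.53% to 8.17% of their counts on chromosome 11 in the other lines and 11.3% in both D2-13B6 libraries, a ratio of 1.45. The ratio was 1.40 for totals of 2 to 4, 1.38 for 5 to 19 and 1.39 for 20 to 99. Loops with totals of 100 and more had 10.6% to 11.2% against 14.4% and 14.5%, a ratio of 1.33. Since a total over all libraries includes D2-13B6, classes were also cut by the total over the other 6 libraries alone, and the ratio then ran from 1.33 to 1.45. The lowest of these classes, at 1.45, also takes loops with no count in the other 6 libraries, which are in it only through D2-13B6. The classes with totals of 2 or more ran from 1.33 to 1.43.

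Promoter and distal contacts shared the excess. Loops with a protein-coding start in both anchors (9221 loops) held 15.2% and 15.3% of their class in D2-13B6 against 11.2% to 11.6%, a ratio of 1.34. With a start in 1 anchor (19062 loops) the shares were 13.6% and 13.6% against 9.88% to 10.4%, again 1.34. With a start in no anchor (12725 loops) they were 11.8% and 12.1% against 8.33% to 9.20%, or 1.38. In all 13 classes both D2-13B6 libraries were higher than every other library.

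**Figure D2:**
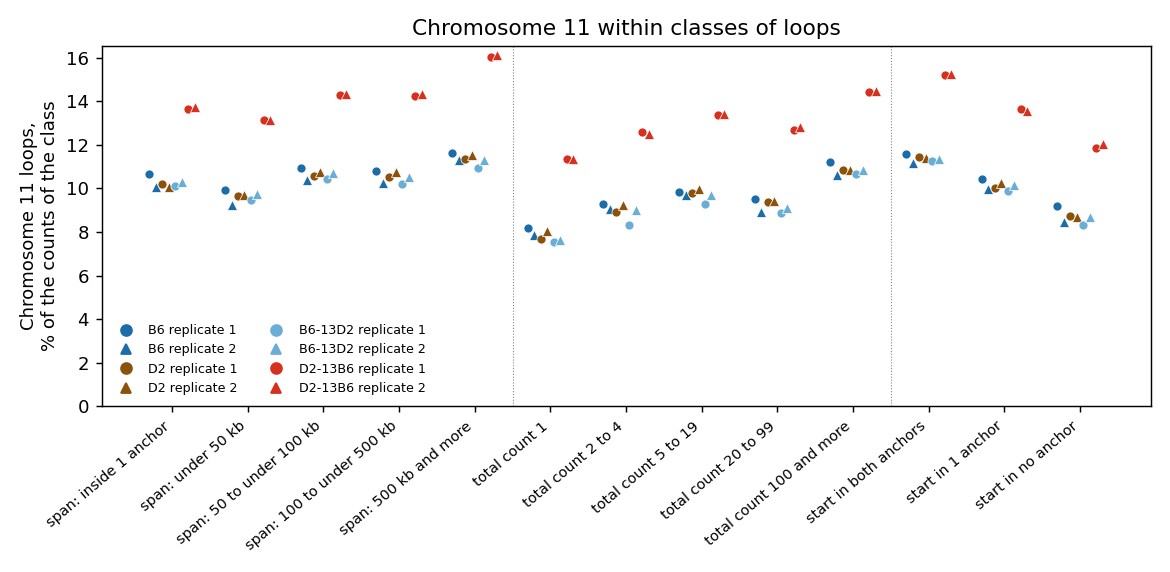
Percent of the counts of each class of loops (x axis: 5 span classes, 5 classes of total count, 3 classes of annotated protein-coding starts) that lay on chromosome 11, per library (y axis, from 0; colour is the line, symbol the replicate). The D2-13B6 points stand above the other 6 in every class, with ratios of 1.33 to 1.45.

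Along the chromosome, both D2-13B6 libraries were above all others in 21 of 25 windows of 5 Mb (84.0%). Over all chromosomes 9.62% of windows had this order, and 5.94% of the windows off chromosome 11. The window of 65 to 70 Mb had the highest ratio, 1.64, with shares of 0.380% and 0.320% in B6, 0.367% and 0.382% in D2, 0.323% and 0.359% in B6-13D2, and 0.573% and 0.593% in D2-13B6. The window of 95 to 100 Mb held the most counts, and its share was at least 1.49% in D2-13B6 against 0.975% to 1.12%, a ratio of 1.43. The windows of 50 to 55 Mb and 20 to 25 Mb stood at 1.49 and 1.45. The raised share was therefore spread along the chromosome and did not come from 1 segment.

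The 4 remaining windows did not separate the lines in this way. The window of 25 to 30 Mb had 0.221% and 0.220% in D2-13B6, below the 0.261% and 0.222% of B6-13D2, and a ratio of 1.07. The ratio was 1.17 at 55 to 60 Mb. It was 0.987 at 35 to 40 Mb, where libraries had 49 to 102 counts, and 0.962 at 110 to 115 Mb, with 296 to 683 counts; these are the 2 thinnest windows. Over the 23 windows with a mean of at least 1000 counts, ratios ran from 1.07 to 1.64, with a median of 1.32 and an SD of 0.140 in log2. The 278 such windows of other chromosomes ran from 0.639 to 1.23, with a median of 0.957 and an SD of 0.169, so windows of chromosome 11 varied among themselves no more than windows elsewhere. D2 over B6 on chromosome 11 had a median window ratio of 0.980 (0.715 to 1.25), and B6-13D2 over B6 one of 0.974 (0.865 to 1.27).

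**Figure D3:**
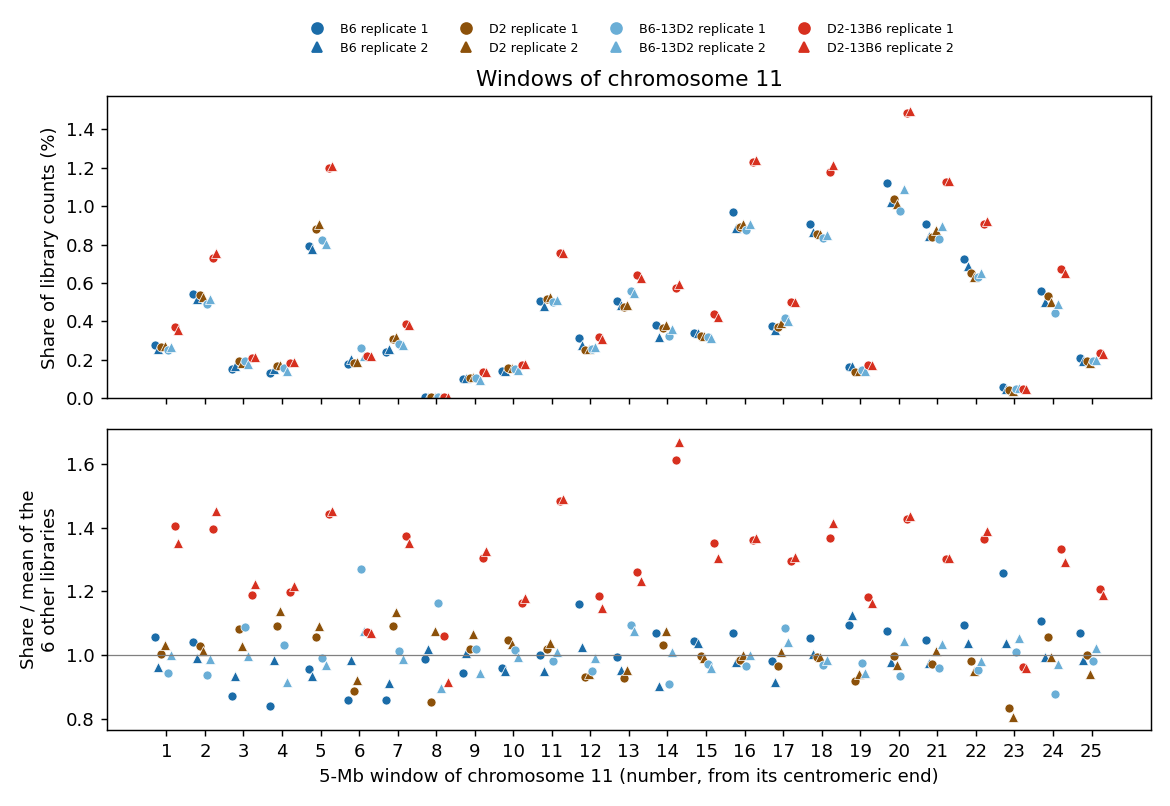
The 25 windows of 5 Mb along chromosome 11 (x axis, numbered from the centromeric end), as share of library counts in percent (upper y axis, from 0) and as share over the mean of the 6 other libraries (lower y axis), per library (colour is the line, symbol the replicate). D2-13B6 stands above all others in 21 windows, with the 4 exceptions in windows 6, 8, 12 and 23.

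Single loops and anchors followed the shares. Of the chromosome 11 loops, 4822 reached 5 counts in 2 or more libraries, and loops that passed only through the deeper D2-13B6 libraries are among them. Their median log2 fold change in D2-13B6 over D2 was 0.47, against -0.03 over tested loops elsewhere, and 80.4% were above 0, against 47.6% elsewhere. At a false discovery rate (FDR) of 0.05, 184 were called, all of them higher in D2-13B6, where 0.922% of loops were called over the whole table, 0.734% higher and 0.188% lower. Both D2-13B6 libraries exceeded all others in 1284 of the 4822 (26.6%), against 7.76% over the whole table. Without the first D2 library the number called was 53, without the second 96, without the first D2-13B6 library 106 and without the second 75. The choice of the chromosome used this contrast, so nothing is read from these counts.

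Summing all loops that touch an anchor gave 1660 anchors of chromosome 11 that reached 10 counts in 2 or more libraries. Their median log2 fold change was 0.46 (quartiles 0.24 and 0.64), against -0.06 elsewhere, and 89.4% were above 0. Of these, 511 were called, against 5.73% of anchors over the whole table, and 510 were higher in D2-13B6 and 1 lower, where 4.28% and 1.45% of anchors over the whole table were called in these directions. DESeq2 gave an adjusted p to 475 of the 1660 anchors and called 295 (62.1%, against 14.4% over the whole table). The number called was 56 with a scaling factor per chromosome (47 higher and 9 lower), or 3.37% against 3.53% over the whole table. It was 206 and 273 without the first and second D2 library, and 338 and 273 without the first and second D2-13B6 library. Both D2-13B6 libraries exceeded all others in 845 anchors, or 50.9%, against 10.5% over the whole table. Median fold changes were higher in anchors of higher level, on chromosome 11 and over the other chromosomes together, with classes cut by the mean over all 8 libraries, D2-13B6 included. The median ran from 0.28 under 20 CPM to 0.63 over 200 CPM on chromosome 11, and from -0.17 to 0.20 elsewhere. The distance between the medians was 0.45, 0.50, 0.45, 0.46 and 0.43 in the 5 classes, or 1.35-fold to 1.42-fold. Anchors with a protein-coding start lay 0.49 above such anchors elsewhere, and anchors without one 0.52 above.

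**Figure D4:**
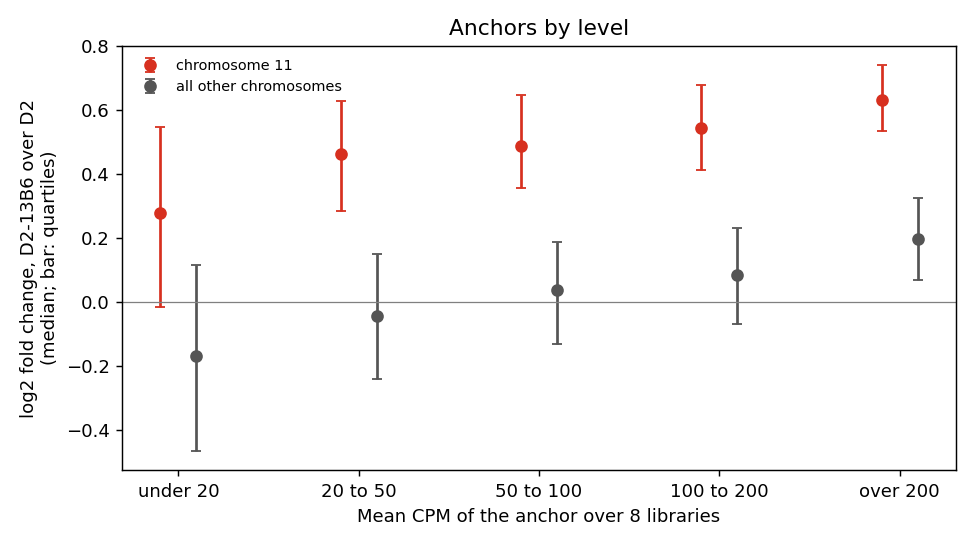
Median log2 fold change of D2-13B6 over D2 (y axis; bars are quartiles over anchors) for tested anchors in 5 classes of mean CPM over the 8 libraries (x axis), on chromosome 11 (red) and on all other chromosomes (grey). Both rise with the level, and the 2 medians stay 0.43 to 0.50 apart.

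Loops seen in D2-13B6 alone were weak. On chromosome 11, 6035 loops (14.7%) had counts in D2-13B6 and in no other line, against 11.8% of loops elsewhere. Of these, 4785 had 1 count, and the highest had 8. Loops with no count in D2-13B6 made up 29.2% of chromosome 11 loops, against 39.2% elsewhere.

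Of the 8 strongest anchors of the chromosome, 7 held the start of a protein-coding gene, and 7 were highest in both D2-13B6 libraries. Among tested anchors over 200 CPM, both D2-13B6 libraries were highest in 83.0% on chromosome 11 and in 31.8% elsewhere. The anchor chr11:88920001-89050000 holds the starts of Scpep1, Elobl, Coil and Trim25. Its level was 1244 and 1098 CPM in B6, 1158 and 1172 in D2, 1244 and 1361 in B6-13D2, and 1906 and 2106 in D2-13B6. The D2-13B6 libraries were the highest pair, B6-13D2 came next, and B6 and D2 overlapped. The Actr2 anchor, chr11:20105001-20185000, had 1207 and 1048 CPM in B6, 1118 and 1214 in D2, 1293 and 1355 in B6-13D2, and 1875 and 1937 in D2-13B6. The log2 difference from D2 was 0.78 for the first and 0.71 for the Actr2 anchor.

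Hspa4, a chaperone of the heat shock protein 70 superfamily, shares an anchor with Zcchc10 with 906 and 969.9 CPM in D2 and 1561 and 1685 in D2-13B6. Helz, which encodes an RNA helicase, stood at 699.5 and 735 CPM in D2 and at 1303 and 1361 in D2-13B6, and the other 4 libraries lay between 769.8 and 1019. Igf2bp1, an RNA-binding protein gene active in early development, shares an anchor with Gip, and this anchor had 703 and 759.5 CPM in D2 and 1263 and 1283 in D2-13B6. An anchor at the non-coding genes Gm23740 and Gm12059 went from 779 and 872 to 1303 and 1354 CPM. The log2 differences of these 4 were 0.79, 0.89, 0.80 and 0.69, and their D2-13B6 libraries were above all others. Rtn4, a reticulon of the endoplasmic reticulum, was the exception among the 8 strongest anchors. It had 853 and 857 CPM in D2-13B6, below the 1035 and 943 of B6-13D2, although above the 585 and 660.0 of D2.

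Anchors were ranked by their difference from D2 among those with a mean of at least 50 CPM over all 8 libraries. This mean includes D2-13B6, and the first 2 anchors named here, with means of 43.1 and 40.6 CPM over the other 6 libraries, reached it only through D2-13B6, so their rank is no result. The first lay beside Lif, the cytokine that sustains mouse embryonic stem cells. The anchor chr11:4245001-4255000, within 5 kb of an annotated Lif start, had 62.9 and 54.9 CPM in B6, 33.9 and 34.9 in D2, 35.9 and 36.0 in B6-13D2, and 82.7 and 89.3 in D2-13B6. Its log2 difference from D2 was 1.32. D2 was lower than B6 here (log2 fold change -0.78, SE 0.20). This is a description with no test, since an anchor picked for its distance from D2 tends to have low D2 libraries. B6-13D2 was lower than B6 by edgeR (-0.72, SE 0.18, adjusted p = 0.00791). Without the first B6 library the fold changes were -0.67 in D2 and -0.61 in B6-13D2. The B6-13D2 call was lost there and without the second B6-13D2 library (-0.72), and DESeq2 did not make it (adjusted p = 0.0631). Next came an anchor in the body of Skap1, an adaptor of immune cell signalling, with 33.2 and 31.9 CPM in D2 and 80.0 and 80.3 in D2-13B6. Kdm6b, a demethylase of histone H3 lysine 27, had 134 and 105 CPM in B6, 128 and 125 in D2, 88.7 and 95.3 in B6-13D2, and 260.3 and 277 in D2-13B6. An anchor at the U3 genes Rnu3b1 and Rnu3b3 had a log2 difference of 1.12, but these genes are near-identical copies and its value is uncertain.

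The anchors at the low end stood at about the level of D2. The Epn2 anchor, at an endocytic adaptor gene, had 84.7 and 90.4 CPM in D2 and 90.4 and 78.9 in D2-13B6, with B6 and B6-13D2 between 89.9 and 100 CPM. An anchor in the body of Pex13, a peroxisome biogenesis gene, had 58.3 and 62.3 CPM in D2 and 59.3 and 55.0 in D2-13B6. The anchors at 2810410L24Rik and Gm25058 stood at -0.08 and -0.05 in log2. The 1 anchor called lower lay in the body of Timp2, an inhibitor of metalloproteinases, with 44.1 and 51.6 CPM in D2 and 30.6 and 30.2 in D2-13B6. In B6 it had 27.4 and 22.1 CPM, so that D2 was above B6 (log2 fold change 0.93, SE 0.22, and 0.81 without the second D2 library). This is a description with no test, since an anchor picked for lying below D2 tends to have high D2 libraries.

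Gene groups of chromosome 11 were read through the anchors that hold their starts. Of 111 listed genes 108 lay on the chromosome and 72 started in an anchor, and some shared one, which left 69 tested anchors. The counts of members called in D2-13B6 against D2 are a description, since the choice of the chromosome used this contrast, and 30.8% of all tested chromosome 11 anchors and 5.73% of those of the whole table were called. Of those chromosome 11 anchors 580 lay under 20 CPM, with a median of 0.28. Groups of stronger anchors are therefore set beside anchors of like level too, in classes cut by the mean over all 8 libraries. Beside the median of 0.46 over all tested chromosome 11 anchors, the group of LIF, STAT and pluripotency signalling genes had 13 tested anchors with a median log2 difference from D2 of 0.48, of which 7 were called higher. Lif itself, at chr11:4265001-4275000, had 43.4 and 32.7 CPM in D2 and 65.2 and 63.6 in D2-13B6. Osm, a cytokine of the same family, had 14.9 and 15.2 CPM in D2 and 44.1 and 44.2 in D2-13B6, but 1 B6 library reached 33.0. Socs3, the feedback inhibitor of this pathway, went from 106 and 103 to 174 and 195 CPM. Stat3, its transcription factor, had 86.8 and 94.9 CPM in D2 and 95.3 and 102 in D2-13B6, a log2 difference of 0.12. The log2 differences of Lif, Osm and Socs3 were 0.75, 1.55 and 0.82, so that the members of this pathway spread widely around the median of the chromosome.

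The group of p53, cell cycle and DNA repair genes had 16 tested anchors, 11 called higher and a median of 0.58, where 30.8% of all chromosome 11 anchors were called and the median was 0.46. The median level of the group was 74.4 CPM over the other 6 libraries, and chromosome 11 anchors of 50 to 100 CPM had a median of 0.49. Trp53, which encodes p53, shares the anchor chr11:69560001-69605000 with Efnb3 and Wrap53. It had 380.4 and 314 CPM in B6, 291 and 309.9 in D2, 296 and 337 in B6-13D2, and 496 and 574 in D2-13B6. Aurkb, a mitotic kinase, had a log2 difference of 0.89 and Brca1, a DNA repair gene, one of 0.65. Of 18 tested anchors of chromatin regulators 11 were called higher, beside the same 30.8%, and the median was 0.60. Their median level was 121 CPM, and chromosome 11 anchors of 100 to 200 CPM had a median of 0.54. Bptf, a subunit of the NURF remodeller, stood at 0.94, and Cbx1, which encodes heterochromatin protein 1 beta, went from 668 and 661 to 1107 and 1186 CPM. Cbx2, a Polycomb subunit, was weak and stood at 0.03.

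The transcription machinery had 9 tested anchors, 3 called higher and a median of 0.46, both close to the 30.8% and the median of 0.46 of the whole chromosome. Polr2a, the largest subunit of RNA polymerase II, had 94.2 and 94.2 CPM in D2 and 143 and 158 in D2-13B6. Med1, a Mediator subunit, had 81.3 and 82.8 CPM in D2 and 133 and 118 in D2-13B6. Of 11 anchors of ribosomal and translation genes 9 were called higher, beside 30.8% of the chromosome, with a median of 0.60. Their median level was 110 CPM over the other 6 libraries, and chromosome 11 anchors of 100 to 200 CPM had a median of 0.54. Rpl23 went from 219 and 205 to 321 and 324 CPM. Eif4a1, a translation initiation helicase, shares its anchor with Sox15, and this anchor had 627 and 632 CPM in D2 and 1160.2 and 1324 in D2-13B6.

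Genes of differentiated cells were largely outside the anchors. Of the 10 Hoxb genes, which pattern the body axis, only Hoxb13 started in an anchor, and its level of 36.4 and 39.2 CPM in D2-13B6 overlapped the 32.2 to 38.9 CPM of the other lines. Of 23 genes of differentiated tissues 3 did, namely Krt10, Sox9 and Ikzf1. Of their anchors 2 were tested, and neither was called in D2-13B6 against D2.

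The parental strains were compared next, a contrast with no D2-13B6 library on either side, although those libraries took part in the filter on low counts and in the estimate of spread. In D2 against B6, 44 loops were called higher and 46 lower, or 1.87% of the 4822, where 2.65% of loops were called over the whole table (1.38% higher and 1.27% lower). Of the anchors, 85 were called higher and 84 lower, or 10.2% against 11.8% over the whole table (5.64% higher and 6.12% lower). The median log2 fold change was 0.06 over loops and 0.00 over anchors. B6-13D2 against B6 gave 14 loops higher and 15 lower, or 0.601% against 0.859% over the whole table (0.537% higher and 0.322% lower). It gave 50 anchors higher and 29 lower, or 4.76% against 5.27% (3.5% higher and 1.77% lower), with medians of -0.02 and -0.04. In both comparisons the share called on chromosome 11 was below that of the whole table, but for anchors this order turned without a filter on low counts (7.94% against 7.72% in D2 and 3.86% against 3.54% in B6-13D2). It also turned for B6-13D2 anchors without the first B6 library (3.02% against 2.94%). With the D2-13B6 libraries left out of filter and fit, 3604 chromosome 11 loops were tested. D2 against B6 then called 85 of them (2.36%, against 3.09% over the whole table, with a median of 0.03), and B6-13D2 against B6 called 23 (0.638% against 0.828%). Of 1588 anchors 141 were called in the first comparison (8.88% against 10.7%) and 55 in the second (3.46% against 4.14%). They share the B6 libraries, so their values are given side by side and no overlap is drawn. With library totals in place of TMM factors the split of B6-13D2 against B6 became 8 higher and 18 lower loops, and 23 higher and 55 lower anchors. This scaling moved the medians of all tested loops and anchors by -0.08 and -0.10, so that change of split is not particular to chromosome 11. The loops split into 22 higher and 11 lower with a scaling factor per chromosome, 11 and 3 with DESeq2, and 11 and 2 without a filter, so the balance of directions depends on the processing.

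The loops higher in D2 with the smallest adjusted p had no protein-coding start in either anchor. The loop from chr11:30480001-30500000 to chr11:30515001-30520000, in the body of the acylphosphatase gene Acyp2, had 8.74 and 6.53 CPM in B6, 99.1 and 87.3 in D2, 9.90 and 6.34 in B6-13D2, and 104 and 114 in D2-13B6. The libraries fell into a low pair of lines with the B6 genome and a high pair with the D2 genome, without overlap. D2 exceeded B6 by 3.56 in log2 (SE 0.35, adjusted p = 1.59e-20 by edgeR). A loop at 88.9 Mb, from chr11:88885001-88890000 to the anchor chr11:88895001-88910000 with the non-coding gene Scpep1os, had 21.2 and 6.53 CPM in B6, 108 and 111 in D2, 13.6 and 26.3 in B6-13D2, and 165 and 168 in D2-13B6. The difference of D2 from B6 was 2.87 (SE 0.30, adjusted p = 5.22e-19 by edgeR).

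A pair of intergenic loops of 10 kb was all but absent in B6. Between chr11:27605001-27610000 and chr11:27615001-27620000, B6 had 0 and 1 counts and D2 21 and 26, a rate ratio of 50.1 (exact 95% interval 8.56 to 2020, counting error only; adjusted p = 4.29e-11 by edgeR). Between chr11:19405001-19410000 and chr11:19415001-19420000, B6 had 0 and 3 counts and D2 24 and 18, a ratio of 14.9 (4.77 to 75.2; adjusted p = 7.93e-08 by edgeR). In both, B6-13D2 was low like B6, at 0 to 2.72 CPM, and D2-13B6 had 21.1 to 25.9 CPM.

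In the other direction, contacts inside the anchor chr11:86965001-87010000 at Ypel2 fell in D2 and in B6-13D2. They had 368 and 310.3 CPM in B6, 131 and 157 in D2, 142 and 185 in B6-13D2, and 207 and 209.7 in D2-13B6. B6 alone was high. The log2 fold change was -1.25 in D2 (SE 0.16, adjusted p = 7.56e-13) and -1.04 in B6-13D2 (SE 0.14, adjusted p = 1.44e-09), each against B6 by edgeR. This was the call with the smallest adjusted p among the fallen loops of either comparison. Near Cdc34b, the loop from chr11:94730001-94740000 to chr11:94745001-94755000 had 79.9 and 63.7 CPM in B6, 15.8 and 33.3 in D2, and 27.2 and 41.6 in B6-13D2. Its log2 fold change was -1.58 in D2 (SE 0.29, adjusted p = 1.49e-05) and -1.03 in B6-13D2 (SE 0.25, adjusted p = 0.00829), each by edgeR. The D2 call was lost without the first D2 library, with a log2 fold change of -1.11.

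Fam114a2 and Nxn marked 2 more of the 46 loops lower in D2. The loop from the Fam114a2 and Mfap3 starts to chr11:57535001-57565000 had 51.2 and 52.3 CPM in B6, 14.4 and 7.94 in D2, 37.1 and 46.2 in B6-13D2, and 20.5 and 16.7 in D2-13B6 (log2 fold change of D2 -2.18, SE 0.38, adjusted p = 1.77e-06 by edgeR). Inside the anchor chr11:76345001-76380000 in the body of Nxn, a thioredoxin-like regulator, the level was 286 and 253 CPM in B6, 155 and 143 in D2, 273 and 319.5 in B6-13D2, and 183 and 154 in D2-13B6 (D2 -0.86, SE 0.16, adjusted p = 1.41e-05 by edgeR). In both, lines with the D2 genome on chromosome 11 were low. Neither was called in B6-13D2 against B6, and the difference between the 2 comparisons was not tested.

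B6-13D2 and B6 share the B6 genome on chromosome 11 by name, and fewer of its loops were called than in D2 against B6. Contacts inside the anchor of Mrpl45, a mitochondrial ribosomal protein gene, had 145 and 168 CPM in B6 and 240.0 and 277 in B6-13D2 (log2 fold change 0.74, SE 0.15, adjusted p = 0.000708 by edgeR). At Ranbp17, of the nuclear transport receptor family, they had 619 and 611 CPM in B6 and 907 and 863 in B6-13D2 (0.52, SE 0.11, adjusted p = 0.00162 by edgeR). At Rtn4 they had 563 and 637 CPM in B6 and 883 and 822 in B6-13D2 (0.51, SE 0.11, adjusted p = 0.00293 by edgeR). Contacts inside an anchor with no annotated gene, chr11:16585001-16615000, had 92.4 and 142 CPM in B6 and 215 and 177 in B6-13D2 (0.76, SE 0.17, adjusted p = 0.00213 by edgeR). In each, both B6-13D2 libraries were above both of B6, which the rule for naming loops required. Each of the 4 calls was lost in fits that left 1 library in B6 or in B6-13D2. Without the first B6 library the fold change was 0.63 at Mrpl45, 0.42 at Rtn4 and 0.46 at the anchor with no gene. Without the first B6-13D2 library it was 0.48 at Ranbp17, 0.45 at Rtn4 and 0.62 at the anchor with no gene. Without the second it was 0.64 at Mrpl45.

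Of the fallen loops, that inside chr11:107345001-107380000, in the body of the phosphatidylinositol transfer protein gene Pitpnc1, had 222 and 222 CPM in B6, 214 and 198 in D2, 121 and 122 in B6-13D2, and 409 and 383 in D2-13B6. B6-13D2 was the lowest line and D2-13B6 the highest (B6-13D2 against B6 -0.87, SE 0.16, adjusted p = 6.02e-05 by edgeR). A loop from the Zkscan17 start to the body of Nlrp3, the inflammasome sensor, had 31.2 and 29.4 CPM in B6 and 6.19 and 9.96 in B6-13D2 (-1.85, SE 0.41, adjusted p = 0.00252 by edgeR). A loop of 200 kb from the body of Slc47a2 to the starts of Mfap4, Mapk7 and B9d1 had 10 and 6 counts in B6 and 1 and 0 in B6-13D2, a rate ratio of 21.7 (exact 95% interval 3.36 to 908; adjusted p = 0.00259 by edgeR). The last 2 calls were lost without a filter on low counts (adjusted p = 0.0821 and 0.0742 by edgeR). They were also lost without the first B6 library, with fold changes of -1.80 and -3.90. The Nlrp3 loop was lost without the first B6-13D2 library too (fold change -1.61) and the Slc47a2 loop without the second (-3.04). DESeq2 gave neither an adjusted p. The calls at Ypel2 and Pitpnc1 held under every setting tried.

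**Figure D5:**
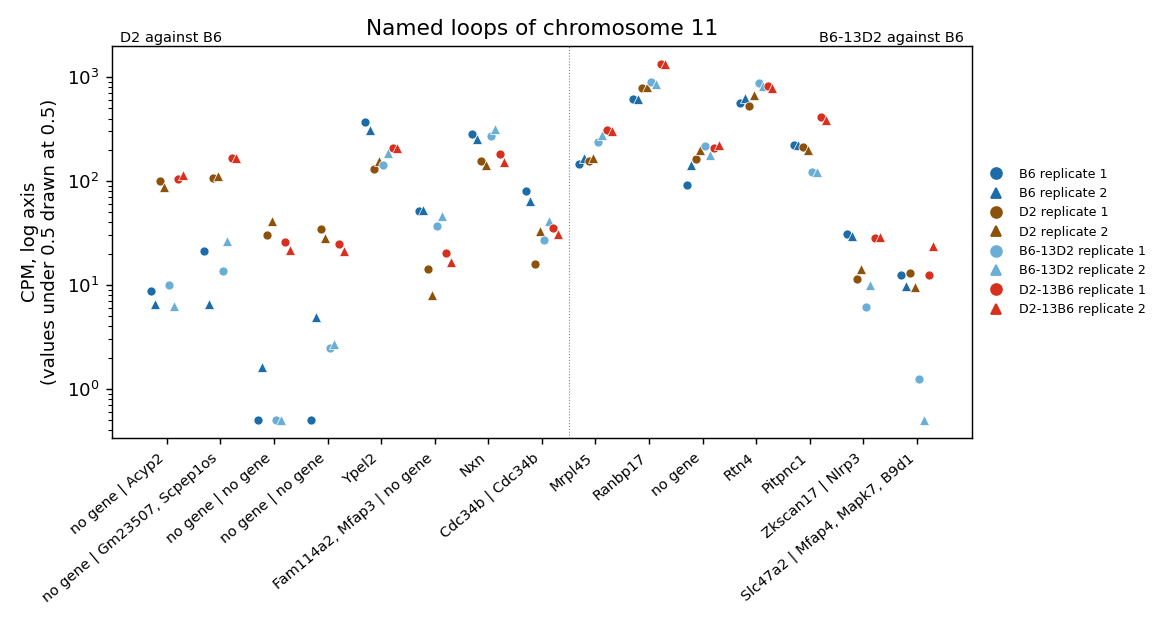
Level of the named loops of chromosome 11 (x axis, by the genes at their anchors; left of the dotted line D2 against B6, right of it B6-13D2 against B6) in CPM on a log axis (y axis, values under 0.5 drawn at 0.5), per library (colour is the line, symbol the replicate). At the Acyp2 loop both lines with the D2 genome stand at 87.3 to 114 CPM and both lines with the B6 genome at 6.34 to 9.90.

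Anchor sums, which are less sparse, were called at several of these genes. The Acyp2 anchor had 9.34 and 11.4 CPM in B6 and 54.9 and 49.4 in D2 (log2 fold change 2.34, SE 0.26, adjusted p = 1.25e-11 by edgeR). The Scpep1os anchor had 106 and 89.9 CPM in B6 and 192 and 185 in D2 (0.94, SE 0.14, adjusted p = 1.22e-07 by edgeR), and 345 and 361 in D2-13B6. The intergenic anchor chr11:57535001-57565000 fell from 138 and 109 to 44.7 and 37.2 CPM (-1.60, SE 0.17, adjusted p = 3.48e-12 by edgeR). The Ypel2 anchor fell from 404 and 346 CPM in B6 to 179 and 182 in D2 (-1.06, SE 0.12, adjusted p = 2.17e-11 by edgeR) and to 225 and 242 in B6-13D2 (-0.69, SE 0.11, adjusted p = 1.34e-05 by edgeR). In D2-13B6 it had 312 and 312 CPM.

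In B6-13D2 against B6, the anchor with the smallest adjusted p among those that rose holds the starts of Ncor1, a nuclear receptor corepressor, and Pigl. It had 837 and 789.6 CPM in B6, 746 and 854 in D2, 1217 and 1156 in B6-13D2, and 1219 and 1275 in D2-13B6 (0.54, SE 0.10, adjusted p = 0.000164 by edgeR). The D2-13B6 level was 0.64 above D2 in log2, close to the median of 0.63 of all chromosome 11 anchors over 200 CPM. The difference of B6-13D2 from B6 held under every setting tried. The Nlrp3 anchor fell from 44.2 and 35.1 CPM in B6 to 14.5 and 16.8 in B6-13D2 (-1.34, SE 0.24, adjusted p = 5.91e-05 by edgeR); DESeq2 gave it no adjusted p.

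Of the 69 listed anchors, 5 were called in D2 against B6 and 3 in B6-13D2 against B6. Over all chromosome 11 anchors these shares were 10.2% and 4.76%, and over all chromosomes 11.8% and 5.27%, so the lists held no more calls than the background. Suz12 had 607 and 532 CPM in B6 and 694 and 833 in D2 (0.42, SE 0.11, adjusted p = 0.0039 by edgeR). Rara, the retinoic acid receptor alpha gene, had 186 and 162 CPM in B6 and 120.0 and 109 in D2 (-0.60, SE 0.14, adjusted p = 0.000823 by edgeR). The others were Meis1 (0.97, adjusted p = 0.0337) and Supt6 (0.61, adjusted p = 0.0045), which rose, and Rpl38 (-0.58, adjusted p = 0.0333), which fell, all by edgeR. Without the second D2 library, which leaves 1 in D2, these calls were lost. Their log2 fold changes were then 0.28, -0.54, 1.02, 0.44 and -0.49 in this order. Without the first B6 library the calls of Meis1 (0.90), Supt6 (0.57) and Rpl38 (-0.26) were lost. Without the first D2 library those of Meis1 (0.90) and Rpl38 (-0.68) were lost, and without the second B6 library that of Meis1 (1.02). Rpl38 also lost its call when either D2-13B6 library left the fit (0.0522 and 0.0515), and DESeq2 called none of Meis1, Supt6 and Rpl38 (0.263, 0.0504 and 0.248). In B6-13D2 against B6, Suz12 rose to 793 and 761 CPM (0.45, adjusted p = 0.00427 by edgeR). Kansl1, of the NSL acetyltransferase complex, rose from 256 and 301 to 394 and 368 CPM (0.46, adjusted p = 0.00593 by edgeR). Both calls were lost without the first B6-13D2 library, with fold changes of 0.40 and 0.40. Suz12 was also lost without the second B6 library (0.35) and Kansl1 without the first (0.34). Ncor1 was the third. In D2-13B6, Suz12 had 1243 and 1379.6 CPM.

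The loops that differed between B6 and D2 were then followed in the congenic lines, which entered neither side of that call. Both lines took part in the filter on low counts and in the estimate of spread. With D2-13B6 left out 3604 loops were tested, so the values over all 4822 include loops that passed only through D2-13B6. Over all 4822 tested loops, the median log2 difference of D2-13B6 from B6-13D2 was 0.50, with a pseudocount of 1 CPM. For the 44 loops higher in D2 it was 1.06, and in 39 of them both D2-13B6 libraries were above both of B6-13D2 (88.6%, against 51.8% of all tested loops). For the 46 loops lower in D2 it was -0.20, and in 22 of them both were below (47.8%, against 7.65%). The 85 anchors higher in D2 had a median of 0.93 and the 84 lower in D2 one of 0.07, against 0.49 over all 1660. Both D2-13B6 libraries were above both of B6-13D2 in 74 of the 85 and in 33 of the 84, and below both in 0 and in 24, where 73.1% of all tested anchors had them above and 5.78% below. The medians of the sets higher in D2 thus lay above the chromosome's median in the congenic pair, and those of the sets lower in D2 below it. This is a description with no test, since the choice of the chromosome used the D2-13B6 counts.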

How the data were processed

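H3K27ac HiChIP was measured in 8 libraries of 4 mouse embryonic stem cell lines, with 2 technical replicates each. The deposited values are whole-number counts of read pairs per loop, not normalized; per the submitters' processing notes, BWA 0.7.18, SAMtools 1.19.2, edgeR 3.34.1 and the build mm10 were named, without their roles. The loop caller and its filters are not given in the sources used here. All columns of the table matched a sample (0 without one), and each library's own file of 5-kb bin pairs had the same total. Coordinates are 1-based on GRCm38, starts are from GENCODE M21, and promoters are from RefSeq.

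Shares are summed counts over library totals. Loops with at least 5 counts and anchors with at least 10, each in at least 2 libraries, were fitted with edgeR 4.0.16 in R 4.3.3 (quasi-likelihood test with TMM factors, a mean for each line, Benjamini-Hochberg adjustment over the whole table, FDR 0.05, 1 fit over the 8 libraries). The scripts were tested on simulated data. CPM are edgeR's counts of tested loops or anchors scaled with TMM factors, and an SE is the fold change over the square root of F. For loops with 1 to 3 counts on one side, a ratio of count rates is given.

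Loops named were the 4 called higher and 4 lower with the smallest FDR per tested comparison whose libraries did not overlap, at least 1 Mb apart, and 3 each way for anchors. The 8 strongest anchors, the 4 with the highest and 4 with the lowest change at a mean of 50 CPM or more over all libraries, D2-13B6 included, and members of gene lists were also named; the Timp2 anchor was named after its values were seen. The members and lists were chosen with earlier results of these data known. Replicates of a line differed by more than sampling noise (chi-square over degrees of freedom 1.05 to 1.21), so none were merged. Alternatives were DESeq2 1.42.0, other scalings and filters, a replicate block, and leaving out each library. Leaving out a library of a compared line leaves that line 1 library. A call lost there does not show that the difference came from the library left out.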

Additional observations from a re-analysis of the deposited data

How the results depend on the processing

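The ratio of the D2-13B6 share to that of the other libraries, 1.36, was 1.18 when every loop with a count weighed 1, and 1.35 to 1.36 with any library left out. The percent of windows with both D2-13B6 libraries highest was 84.0 to 88.0 with any library left out, 68.3 for 2-Mb and 100 for 10-Mb windows. The median log2 fold change of D2-13B6 over D2, 0.47, was 0.36 with library totals alone, which lowered the median of all loops by 0.11, 0.10 with a scaling factor per chromosome (chosen after seeing the data), which removes a shift of a whole chromosome by construction, 0.43 with a filter at 20 counts, and 0.43 to 0.50 with any library left out. The loops called in D2-13B6 against D2, 184, were 22 with a scaling factor per chromosome, 100 with DESeq2 and 53 to 189 with any library left out. In D2 against B6, the 90 loops became 23 with DESeq2, 29 with no filter on low counts and 26 to 91 with any library left out (26 without the first B6 or the second D2 library, 41 without the first D2 library), and the 169 anchors became 53 with DESeq2 and 70 to 192 with any library left out (82 without the first B6, 75 without the first D2 and 70 without the second D2 library). In B6-13D2 against B6, the 29 loops became 14 with DESeq2, 13 with no filter and 7 to 24 with any library left out (9 without the first B6, 7 without the first and 16 without the second B6-13D2 library), and the 79 anchors became 29 with DESeq2 and 28 to 73 with any library left out (50 without the first B6, 28 without the first B6-13D2 library). The causes were not tested. DESeq2 gave an adjusted p to 264 chromosome 11 loops in D2-13B6 against D2 and called 37.9% (8.94% over the whole table). For D2 against B6 it did so for 1545 loops (1.49% called, against 2.35%) and 1384 anchors (3.83% against 5.53%). For B6-13D2 against B6 these were 264 loops (5.30% against 6.22%) and 751 anchors (3.86% against 5.98%). The 22 loops called with a scaling factor per chromosome were 0.456%, against 0.687% over the whole table. Same-numbered libraries did not deviate together (correlations of -0.16 to 0.03), so the numbers pair nothing. With the replicate block the counts of calls were 165, 84 and 20 loops in the order above, 143 and 55 anchors, and the median was 0.47. With the B6 numbers crossed, 102 anchors were called in B6-13D2 against B6. Depth limits single loops, since most had too few counts to be tested.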
